A study of Mus musculus with 9 samples.

Results

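Immunoglobulin variable segments were taken as the rows of the blood expression table whose names begin with Ighv (heavy chain), Igkv (kappa light chain) or Iglv (lambda light chain). They numbered 230 of 23499 rows, of which 122 were Ighv, 105 Igkv and 3 Iglv. Each segment's share of the summed variable signal was followed by mouse in the columns that the authors labelled as a GL7-positive B cell class, 1301 of 4310 blood columns, called the B class below. The blood came from 4 healthy and 5 arthritic female mice of strain 129SvE and was profiled by Seq-Well, in which cells settle into small wells that each hold a barcoded bead. The labels put the healthy mice at disease stage 0, arthritic mice 1 and 4 at stage 1.5, arthritic mouse 3 at stage 2, arthritic mouse 5 between 1.5 and 2, and arthritic mouse 6 between 2 and 2.5. They describe the tissue both as blood and as its mononuclear cells. The sources used here give neither the age of the mice, nor how the arthritis was brought about, nor what the stages measure.

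A variable segment encodes most of the antigen-binding part of an antibody chain. In each developing B cell, recombination joins a heavy variable segment to diversity and joining segments, and a light variable segment to a joining segment, so that a mature B cell as a rule transcribes a single productive heavy and a single productive light rearrangement. When such a cell expands, its descendants carry the same segments, and antibody-secreting cells make far more immunoglobulin transcript than resting B cells. Kappa light chains are the prevalent type in mouse, and lambda light chains use very few variable segments.

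All 230 rows matched a gene of that name in the GENCODE M21 annotation of build GRCm38, which holds 346 such genes, 183 Ighv, 160 Igkv and 3 Iglv. The rows comprised 187 functional segment genes and 43 pseudogenes. The annotated Ighv genes with a row spanned chr12:113572927-116010093, the Igkv genes chr6:67555497-70704177 and the Iglv genes chr16:19085017-19260859. Spliced transcripts were 327 to 501 bases long, with a median of 358. Because the segments arose by duplication, 188 rows shared at least 1 window of 50 bases, the length of the transcript read per the labels, with another annotated segment, and in 25 rows at least 50% of the windows were shared. Signal between near-identical segments is therefore uncertain. The reference genome is of strain C57BL/6J and the mice were 129SvE, and the part of this difference in the assignment of signal was not tested.

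The light chain segments that alone led the variable signal of healthy mouse 2 and of each arthritic mouse are shown, since many of the results turn on them and on how little they differ from their nearest relative. Each line gives the last 300 bases of the GENCODE M21 transcript, 5′ to 3′, and capitals mark bases that differ from, or have no counterpart in, the closest annotated segment of the same chain. Iglv1 (chr16:19085017-19085500, minus strand), which led in healthy mouse 2, differed from Iglv2 at 12 of 366 aligned bases.
Iglv1: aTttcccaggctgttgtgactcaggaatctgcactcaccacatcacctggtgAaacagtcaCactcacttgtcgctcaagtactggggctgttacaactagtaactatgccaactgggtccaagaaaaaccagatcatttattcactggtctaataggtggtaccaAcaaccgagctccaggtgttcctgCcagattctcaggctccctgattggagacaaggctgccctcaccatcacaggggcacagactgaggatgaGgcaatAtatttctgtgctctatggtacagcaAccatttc
Igkv3-12 (chr6:70518250-70518849, plus strand) led in arthritic mouse 1 and differed from Igkv3-7, the leading segment of healthy mouse 1, at 12 of 359 bases. Of its 310 windows of 50 bases, 181 occurred in Igkv3-7 or some other annotated segment.
Igkv3-12: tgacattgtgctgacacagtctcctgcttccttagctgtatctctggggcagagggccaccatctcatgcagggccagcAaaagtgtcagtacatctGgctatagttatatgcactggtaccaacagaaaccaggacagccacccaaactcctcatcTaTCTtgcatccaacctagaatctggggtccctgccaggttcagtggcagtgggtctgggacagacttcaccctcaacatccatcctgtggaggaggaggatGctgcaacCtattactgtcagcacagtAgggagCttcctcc
Igkv8-30 (chr6:70117061-70117620, minus strand) led in arthritic mouse 3 and differed from Igkv8-21 at 24 of 365 bases.
Igkv8-30: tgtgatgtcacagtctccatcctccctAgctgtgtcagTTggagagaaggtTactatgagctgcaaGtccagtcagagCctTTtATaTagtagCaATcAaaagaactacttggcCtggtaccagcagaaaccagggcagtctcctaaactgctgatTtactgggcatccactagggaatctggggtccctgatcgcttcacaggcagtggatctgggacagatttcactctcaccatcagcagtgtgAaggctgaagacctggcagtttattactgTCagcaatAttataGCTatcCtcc
Igkv12-44 (chr6:69814631-69815154, minus strand) led in arthritic mouse 4 and differed from Igkv12-41 at 15 of 347 bases.
Igkv12-44: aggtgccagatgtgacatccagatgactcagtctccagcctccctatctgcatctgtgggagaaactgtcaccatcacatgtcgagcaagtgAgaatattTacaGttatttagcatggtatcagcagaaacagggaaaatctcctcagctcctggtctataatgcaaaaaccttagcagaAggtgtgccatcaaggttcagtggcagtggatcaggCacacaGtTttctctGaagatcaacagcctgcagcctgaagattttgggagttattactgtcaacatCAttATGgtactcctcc
Igkv1-135 (chr6:67609713-67610508, plus strand) led in arthritic mouse 5 and differed from Igkv1-133 at 13 of 374 bases.
Igkv1-135: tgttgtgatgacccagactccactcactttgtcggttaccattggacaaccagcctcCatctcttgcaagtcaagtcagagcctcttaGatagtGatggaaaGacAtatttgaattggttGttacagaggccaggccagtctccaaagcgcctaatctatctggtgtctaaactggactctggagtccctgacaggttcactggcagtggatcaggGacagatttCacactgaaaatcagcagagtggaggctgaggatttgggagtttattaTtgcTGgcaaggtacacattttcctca
Igkv5-43 (chr6:69823355-69823943, minus strand) led in arthritic mouse 6 and was the least distinct, with 6 of 379 bases differing from Igkv5-45.
Igkv5-43: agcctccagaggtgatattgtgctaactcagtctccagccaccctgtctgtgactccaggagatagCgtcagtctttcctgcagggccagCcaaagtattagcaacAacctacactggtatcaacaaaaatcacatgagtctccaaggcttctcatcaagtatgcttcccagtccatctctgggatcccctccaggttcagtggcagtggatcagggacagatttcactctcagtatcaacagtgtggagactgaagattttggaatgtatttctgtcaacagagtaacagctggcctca

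The columns of the B class were spread unevenly over the mice. Healthy mice 1, 2, 3 and 4 had 9, 111, 1 and 15, and arthritic mice 1, 3, 4, 5 and 6 had 274, 448, 86, 9 and 348. Healthy mouse 3, with 1 column holding 5 variable signal, was left out of all measures per mouse, which leaves 3 healthy and 5 arthritic mice. The class held transcripts of B cells, but its label could not be taken at face value. The summed level of 15 B cell markers ranged from 1788 to 3166 SPM (signal per 1000000, after scaling between mice) in healthy and from 2245 to 3115 in arthritic mice, while 12 T cell markers ranged from 1665 to 2981 and from 1229 to 2444. The 12 neutrophil genes summed to more, 2305 to 4196 SPM in healthy and 3600 to 5504 SPM in arthritic mice. The germinal centre genes summed to between 394 and 520 SPM in healthy and between 285 and 966 SPM in arthritic mice. The 8 red cell genes summed to between 1292 and 639835 SPM in healthy and between 1183 and 208716 SPM in arthritic mice, with the highest value in healthy mouse 4, and the part of these genes in the results below was not tested.

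Columns were not independent of each other. Within the B class, 345 of 1301 columns (26.5%) equalled another column in every gene, and only 1081 profiles were distinct. The repeats formed 125 sets, 81 of which spanned more than 1 mouse and 17 of which spanned both groups. The 235 columns that a mouse shared with another mouse were 18.1% of the class but held 69.9% of its variable signal. Of 4309 distinct cell barcodes, 1 occurred in more than 1 mouse. The measures per mouse are therefore also given with identical columns counted once per mouse or with columns shared between mice left out, where this changed their order or size; the latter leaves healthy mouse 4 with too few columns.

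The summed variable signal of the B class was 63, 1975 and 84 in healthy mice 1, 2 and 4 and 36869, 35818, 4071, 1739 and 3423 in arthritic mice 1, 3, 4, 5 and 6. As a percentage of all signal of the class, this came to 0.0544, 0.199 and 0.0583 in the healthy mice and to 1.29, 0.698, 0.459, 1.77 and 0.0914 in the arthritic mice. Arthritic mice 1, 3, 4 and 5 lay above all healthy mice, but arthritic mouse 6 lay below healthy mouse 2, so the groups overlapped. The means were 0.104% ± 0.0824 (SD, n = 3) and 0.863% ± 0.671 (SD, n = 5). The difference between the means was 0.759 percentage points, and 0.398 with columns shared between mice left out. In that setting arthritic mouse 4 kept 310 variable signal in 75 columns, and healthy mouse 2 kept 1224 in 95. The place of arthritic mouse 4 above healthy mouse 2 thus rested on shared columns. In sums like these, fewer cells of a kind and less transcript per cell cannot be told apart.

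The ratio of variable to constant region signal varied little for the heavy and kappa chains and widely for lambda. Per 100 of heavy constant region signal there were 25.3, 19.0 and 20.8 of Ighv signal in healthy mice 1, 2 and 4 and 18.9, 18.2, 23.6, 21.2 and 33.9 in arthritic mice 1, 3, 4, 5 and 6. Per 100 of Igkc, the kappa constant region, Igkv signal was 21.4, 14.6 and 16.2 in the healthy and 21.9, 20.7, 21.1, 15.1 and 18.6 in the arthritic mice. The groups overlapped in both ratios, and arthritic mouse 6 was the highest for the heavy chain. Per 100 of lambda constant region signal, Iglv signal was 2.40, 9.59 and 8.40 in the healthy and 14.7, 10.3, 3.66, 27.6 and 2.72 in the arthritic mice. Without columns shared between mice the heavy ratio ran from 14.4 to 34.96, the kappa ratio from 13.9 to 22.1 and the lambda ratio from 1.36 to 40 over the 7 mice left.

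Kappa segments held the largest part of the variable signal in all of these mice except healthy mouse 2. The Igkv share was 58.7%, 38.5% and 48.8% in healthy mice 1, 2 and 4 and 62.3%, 61.9%, 67.6%, 53.5% and 47.9% in arthritic mice 1, 3, 4, 5 and 6. Ighv shares were 36.5%, 41.2% and 39.3% in the healthy and 33.8%, 32.2%, 31.3%, 42.6% and 47.7% in the arthritic mice, so that both chains overlapped between the groups and Ighv nearly equalled Igkv in arthritic mouse 6. The 3 Iglv segments held 4.76%, 20.3% and 11.9% in the healthy and 3.83%, 5.94%, 1.08%, 3.91% and 4.41% in the arthritic mice. Healthy mice 2 and 4 were above every arthritic mouse for lambda, while healthy mouse 1 lay among the arthritic mice with 3 Iglv of its 63 variable signal. This order rested on repeated columns. With identical columns counted once, healthy mouse 4 held 4% (1 of 25 signal), within the arthritic range. With columns shared between mice left out, healthy mice 1 and 2 held 4.35% and 3.84% and arthritic mice 1, 3, 4, 5 and 6 held 3.04%, 2.89%, 3.23%, 5.41% and 4.33%, so the groups overlapped. In that setting Igkv led Ighv in healthy mouse 2, at 54.7% against 41.4%, and Ighv led Igkv in arthritic mice 1 and 6, at 49.9% against 47.1% and 48.1% against 47.5%. Lambda made up 41.9%, 44.5% and 31.99% of the light constant region signal in the healthy mice and 8.38%, 16.2%, 8.43%, 3.83% and 38.6% in the arthritic mice, with arthritic mouse 6 among the healthy values. Without the shared columns healthy mouse 2 stood at 18.9% and arthritic mouse 4 at 40.1%.

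Nearly the whole set of segments was found somewhere in the class. In all, 227 segments had signal in at least 1 B-class column and 3 had none, but only 4 had signal in all 8 mice. The number of segments seen was 42, 172 and 20 in healthy mice 1, 2 and 4 and 222, 225, 174, 131 and 186 in arthritic mice 1, 3, 4, 5 and 6. The 2 mice with the most signal, arthritic mice 1 and 3, had the most segments. Thinned to the 63 variable signal of healthy mouse 1, the expected number of segments was 42.0, 38.6 and 16.5 in the healthy and 38.1, 38.7, 33.9, 34.2 and 45.2 in the arthritic mice. At equal depth healthy mice 1 and 2 thus lay within the arthritic range and healthy mouse 4 lay below it. Drawn to an equal 9 columns instead, the mice held 42.0, 41.8 and 14.4 segments against 86.8, 77.2, 54.8, 131 and 45.5, and no arthritic mouse fell to the healthy range. The gap between the group means was therefore 5.64 segments at equal signal and 46.3 at equal columns. At equal signal it turned to -2.30 without healthy mouse 4, to -0.599 with identical columns counted once and to -2.18 without columns shared between mice. In the last 2 of these settings the equal depth was not 63 but 25 and 23 signal, the smallest mouse total left.

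Evenness, the Shannon entropy of the shares over its maximum for the segments seen, was 0.940, 0.822 and 0.795 in healthy mice 1, 2 and 4. In arthritic mice 1, 3, 4, 5 and 6 it was 0.791, 0.793, 0.764, 0.809 and 0.891. The effective number of segments, the exponential of that entropy, was 33.6, 68.9 and 10.8 in the healthy and 71.7, 73.2, 51.5, 51.7 and 105 in the arthritic mice. Arthritic mouse 6 used its segments most broadly by this measure, healthy mouse 2 fell among the arthritic mice, and healthy mice 1 and 4 were below all of them. The group means were 37.8 ± 29.3 (SD, n = 3) and 70.7 ± 22.02 (SD, n = 5), a difference of 32.9 that was 19.4 without healthy mouse 4, 20.2 without columns shared between mice and 8.15 within the Igkv segments alone. Signal differed widely between the mice, and since this measure was not thinned, healthy mouse 1, with 63 signal, could not have reached more than 63.

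**Figure D1:**
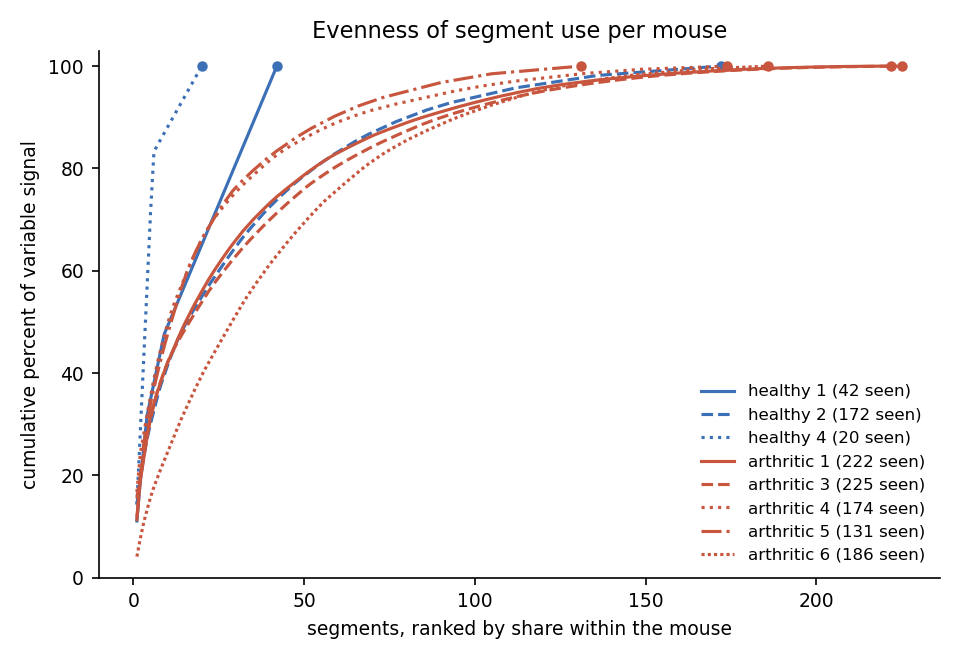
Cumulative percentage of a mouse's variable signal (vertical axis) against the number of segments, ranked from the most to the least used in that mouse (horizontal axis), for 3 healthy mice (blue) and 5 arthritic mice (red); each dot marks the number of segments seen. The curve of healthy mouse 4 ends at 20 segments and that of arthritic mouse 3 at 225, and arthritic mouse 6 rises most slowly.

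The leading segment was a different one in each mouse. In healthy mouse 1 it was Igkv3-7, with 7 of 63 signal (11.1%), and in healthy mouse 2 Iglv1, with 285 of 1975 (14.4%). Healthy mouse 4 had 5 segments tied at 12 of 84 signal (14.3%), namely Ighv1-76, Ighv1-83, Igkv1-110, Igkv8-24 and Igkv10-94. The arthritic leaders were Igkv3-12 in mouse 1 (11.4%), Igkv8-30 in mouse 3 (15.5%), Igkv12-44 in mouse 4 (16.8%), Igkv1-135 in mouse 5 (11.8%) and Igkv5-43 in mouse 6 (4.15%). Every arthritic leader was thus a kappa segment, and the share of the leader overlapped between the groups, at 13.3% ± 1.88 (SD, n = 3) in healthy and 11.9% ± 4.92 (SD, n = 5) in arthritic mice. The difference of -1.35 percentage points turned to 0.598 without arthritic mouse 6, to 1.15 with identical columns counted once and to 3.33 without columns shared between mice. Per base of transcript the leader was the same in 7 of 8 mice, and in healthy mouse 4 the tie resolved to Igkv10-94.

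**Figure D2:**
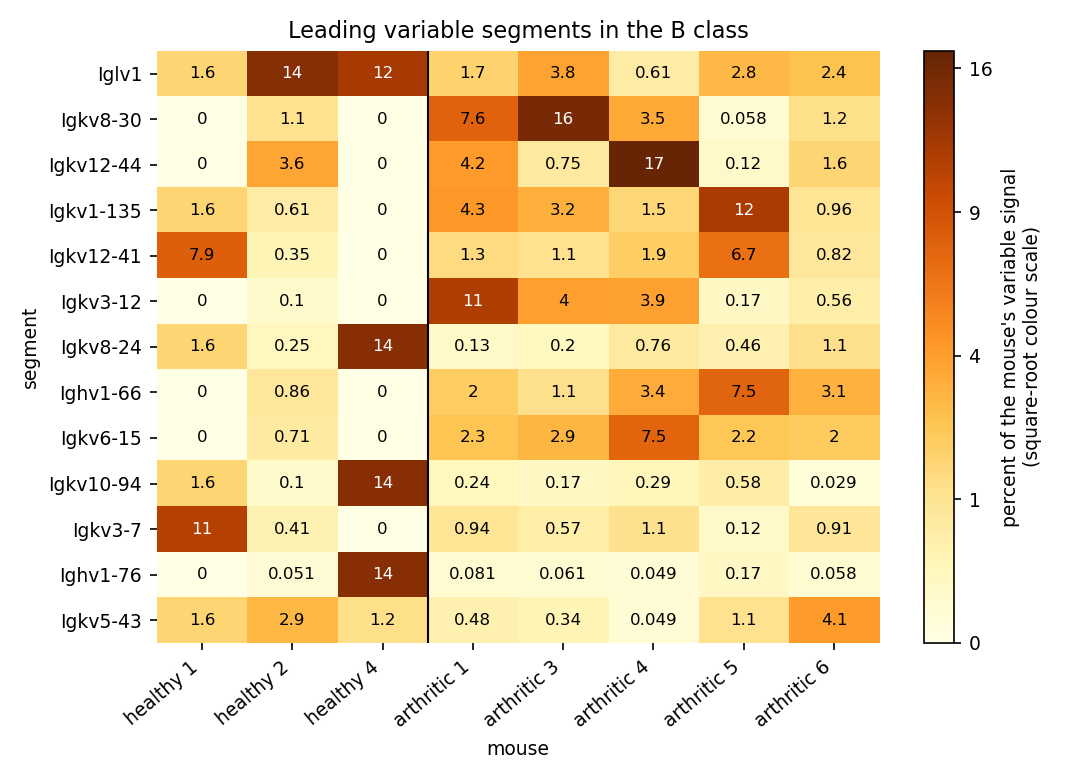
Percentage of each mouse's B-class variable signal (number and colour, square-root colour scale) for the 10 segments with the highest mean share and the leader of each mouse (rows), in 3 healthy and 5 arthritic mice (columns). The darkest cell of each column falls on a different row, except for the ties of healthy mouse 4 at 14.3%.

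Most leaders rested on very few columns. Iglv1 had 251 of its 285 signal in healthy mouse 2 in 1 of 111 columns. Igkv12-44 had 672 of its 682 signal in arthritic mouse 4 in 1 of 86 columns, and all 206 of Igkv1-135 in arthritic mouse 5 came from 1 of 9. Igkv5-43 in arthritic mouse 6 was the exception among the arthritic leaders, with signal in 58 of 348 columns and at most 14 in any of them. Igkv8-30 was found in 91 of 448 columns of arthritic mouse 3, with 5559 signal in all. Of these columns, 2 identical ones and 1 near copy of them each held 1463. Igkv3-12 had 4195 signal in 25 of 274 columns of arthritic mouse 1, and 3 identical columns each held 1220 of it. The tie in healthy mouse 4 came from 12 of its 15 columns, each with 1 signal of every one of the 5 segments. Of these, 10 columns also held 1 signal of Iglv1, equalled each other and 1 column of arthritic mouse 4 in every gene, and carried 71.4% of the variable signal of healthy mouse 4. The same 5 segments at 1 signal each made up the single column of healthy mouse 3.

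Removing repeats changed who led. With identical columns counted once per mouse, Igkv8-30 replaced Igkv3-12 in arthritic mouse 1, at 10.1% against 6.09%, and the leaders of arthritic mice 3, 4, 5 and 6 and of healthy mice 1 and 2 were the same. With columns shared between mice left out, Iglv1 fell to 2.45% in healthy mouse 2, where Igkv12-44 then led with 5.39%. In the same setting Igkv12-44 fell to 2.58% in arthritic mouse 4, where Igkv12-46 led with 6.13%, and Igkv3-12 fell to 0.643% in arthritic mouse 1, where Igkv1-135 led with 5.65%. Igkv8-30 in arthritic mouse 3 (14.6%), Igkv1-135 in arthritic mouse 5 (21.4%) and Igkv5-43 in arthritic mouse 6 (4.04%) led in that setting too. It removes exact copies only, so near copies of other mice's columns remained. In arthritic mouse 3, 1463 of the 1605 Igkv8-30 signal left came from 1 column. Over all genes that column shared 97.9% with a profile also found in arthritic mouse 1. The 1 column with the 206 Igkv1-135 signal of arthritic mouse 5 shared 93.3% with a profile of arthritic mouse 1.

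Among heavy segments, Ighv1-66, a member of the large Ighv1 family, held 0%, 0.861% and 0% of the variable signal in healthy mice 1, 2 and 4 and 2.01%, 1.14%, 3.39%, 7.53% and 3.13% in arthritic mice 1, 3, 4, 5 and 6. All arthritic mice exceeded all healthy mice for this share, with the highest value in arthritic mouse 5. Without columns shared between mice, arthritic mouse 4 held 0% of Ighv1-66 and the groups overlapped. Ighv10-1 held 1.59%, 4.41% and 0% in the healthy and 2.21%, 2.07%, 0.147%, 3.97% and 0.263% in the arthritic mice, a range that overlapped. The Ighv1 family as a whole, with 65 rows, took 1.59%, 11.3% and 33.3% in the healthy and 10.2%, 9.38%, 14.9%, 20.0% and 19.7% in the arthritic mice, so that its lowest and highest values both came from healthy mice. Without shared columns healthy mice 1 and 2 stood at 0% and 6.21%, below the arthritic range of 8.71% to 19.9%. Among kappa families, Igkv8 (11 rows) reached 20.1% in arthritic mouse 3 and Igkv12 (11 rows) 22.5% in arthritic mouse 4, against 3.38% for Igkv12 in arthritic mouse 3. Without shared columns these were 19.6%, 11.6% and 4.77%.

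Overlap between mice was measured as the summed minimum of the 2 mice's shares over all segments, where 100% means equal use. The 10 pairs of arthritic mice overlapped by 45.2% to 77.6%, with a median of 49.5%. The 3 pairs of healthy mice overlapped by 9.52% to 29.3%, and the 15 mixed pairs by 7.80% to 55.6%, with a median of 28.4%. The pairs are not independent, since each mouse enters several, and low values went with little signal: every pair with healthy mouse 1 or 4, which had 63 and 84, was at or below 32.2%. Healthy mouse 2, with 1975 signal, overlapped with arthritic mice 1, 3, 4, 5 and 6 by 44.3%, 46.7%, 36.7%, 40.3% and 55.6%. Its value with arthritic mouse 6 exceeded all arthritic pairs except that of mice 1 and 3.

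Arthritic mice 1 and 3, the pair with the highest overlap, had 42 B-class profiles in common. These made up 54 columns and 63.2% of the variable signal in mouse 1 and 66 columns and 63.4% in mouse 3. Without the columns shared between mice this pair overlapped by 67.9%, and the arthritic pairs ranged from 23.9% to 67.9%, with a median of 43.8%. The 4 pairs with arthritic mouse 5 then spanned 23.9% to 35.3%, and the mouse had 962 variable signal left. The value of healthy mouse 2 with arthritic mouse 6 was 58.7% in that setting.

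**Figure D3:**
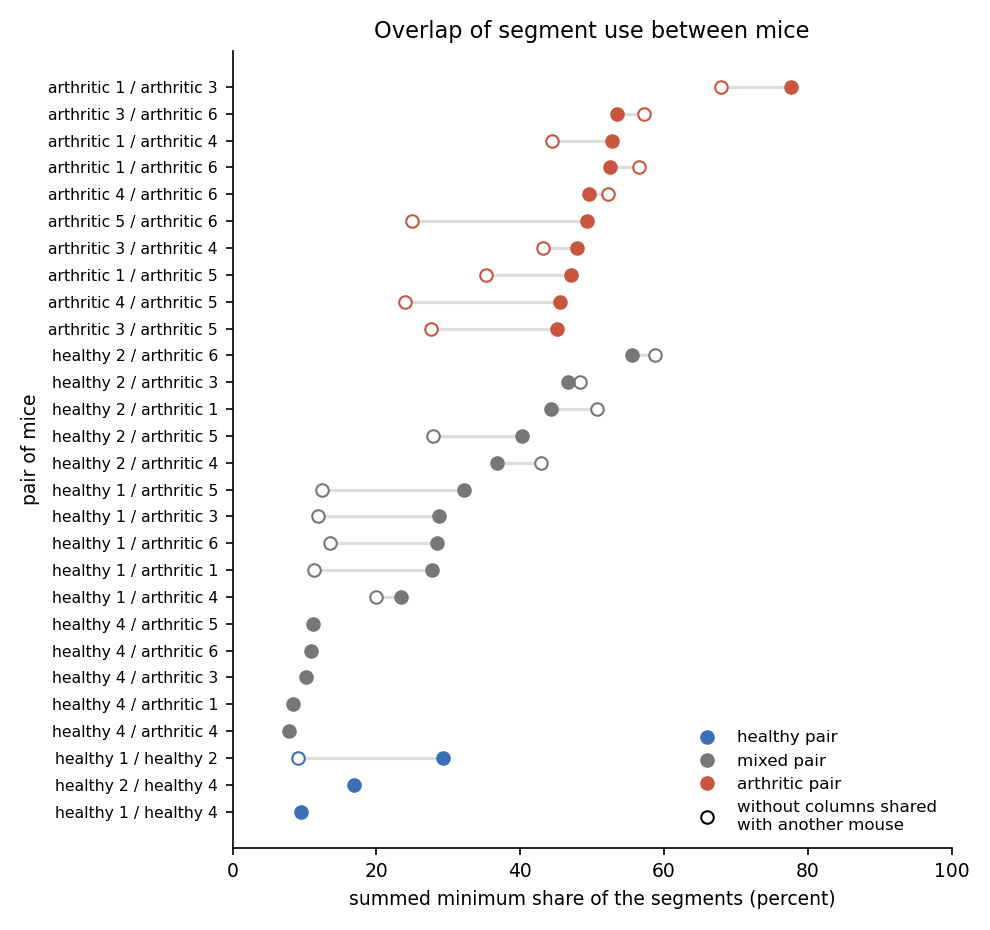
Overlap of segment use (summed minimum share, percent, horizontal axis) for each of 28 pairs of mice (rows), as filled circles for all B-class columns and open circles without columns shared with another mouse. Arthritic pairs lie between 45.2% and 77.6% with all columns, and no open circle is drawn for healthy mouse 4, which then had too few columns.

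Most of the variable signal summed over the class was carried by a small, separate group of columns, though not in every mouse. Across the class, 1218 columns had at most 46 variable signal, with a median of 6, and 52 of these had none. The other 83 columns had between 154 and 2593, and no column lay in between. The limit of 100 used to part them was chosen after seeing this gap. The 83 columns were 6.38% of the class and held 88.6% of its variable signal. By mouse they held 0%, 71.1% and 0% of it in healthy mice 1, 2 and 4. In arthritic mice 1, 3, 4, 5 and 6 they held 94.9%, 89.2%, 91.5%, 97.8% and 21.4%. Healthy mice 1, 2 and 4 had 0, 3 and 0 of them and arthritic mice 1, 3, 4, 5 and 6 had 34, 36, 5, 3 and 2. Jchain, which encodes the chain that joins IgM and IgA into polymers and is made by antibody-secreting cells, stood at 43699 to 55216 SPM (unscaled) in these columns of the 6 mice that had them, and at 129 to 1248 SPM in the remaining columns of the 8 mice.

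Outside these columns the level of variable signal was 544, 600 and 583 SPM (unscaled) in healthy mice 1, 2 and 4 and 789, 839, 424, 663 and 724 in arthritic mice 1, 3, 4, 5 and 6. Arthritic mouse 4 was below the 3 healthy mice and the other arthritic mice were above them. The effective number of segments there was 33.6, 82.2 and 10.8 in the healthy and 95.5, 106, 58.9, 10.2 and 99.0 in the arthritic mice. These values were not thinned. In arthritic mouse 5 the columns left out had held 97.8% of 1739 variable signal, so its value rests on little signal.

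**Figure D4:**
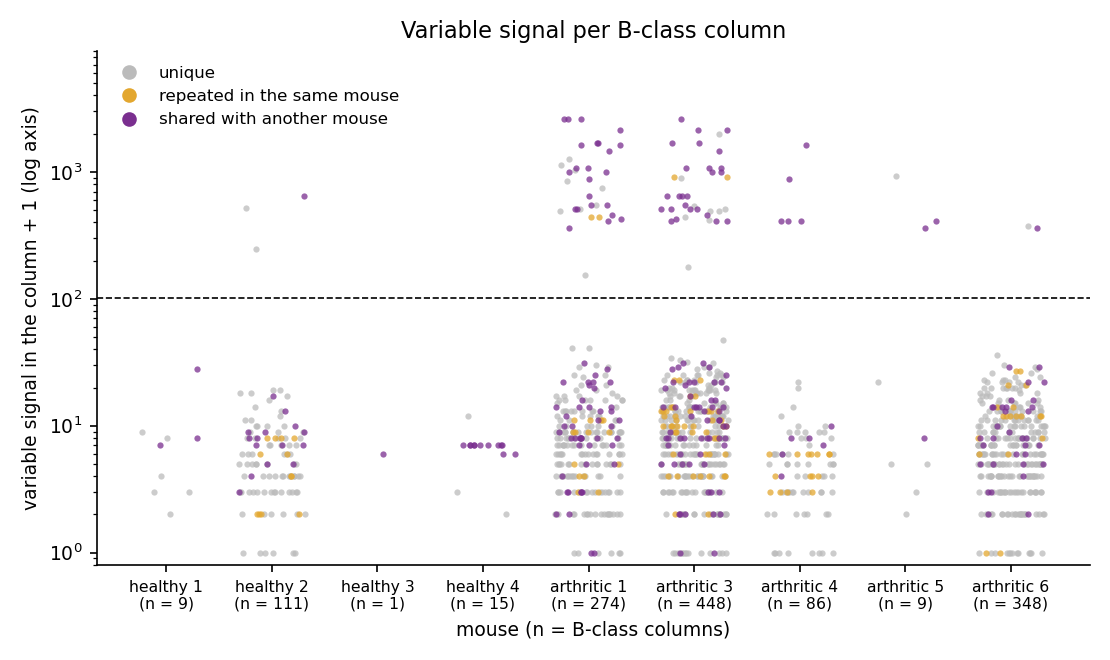
Variable signal of each B-class column plus 1 (log axis) by mouse, with the number of columns under each mouse; purple columns equal a column of another mouse, yellow ones a column of the same mouse. The dashed line marks a variable signal of 100, above which lie 3 columns of healthy mouse 2 and 34, 36, 5, 3 and 2 of arthritic mice 1, 3, 4, 5 and 6.

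The 83 columns rich in variable signal held only 43 distinct profiles, of which 19 occurred in at least 2 mice and 1 in both groups. The latter was led by Iglv1, at 251 of 645 signal, and was found in 1 column of healthy mouse 2 and 3 of arthritic mouse 3. The richest profile had 2593 variable signal, of which 1220 was Igkv3-12, and occurred in 3 columns of arthritic mouse 1 and 1 of arthritic mouse 3. Distinct profiles were often near copies: 24 of 43 had the same leading segment at the same value as another profile. Over all genes, not the variable segments alone, 34 of 43 had at least 80% of the smaller profile's signal in common with another. The next 2 profiles, with 2132 and 1996 variable signal, both held 1463 of Igkv8-30.

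No profile was made of a single heavy and a single light segment. Each held signal in 30 to 91 segments, with a median of 66. The leading segment took 7.36% to 73.3% of the variable signal, with a median of 15.9%, and passed 50% in only 2 profiles, both led by Igkv8-30. The leading light segment took a median of 26.4% of the light variable signal and the leading heavy segment a median of 16.5% of the heavy variable signal. Constant regions were far more concentrated, with a median of 97.9% of the heavy constant signal from a single gene and at least 90% in 34 of 43 profiles. This gene was Ighm in 17 profiles, Ighg1 in 14, Igha in 10, and Ighg2b and Ighg2c in 1 each.

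The heavy leaders were listed by the constant gene of the profile. Of the 10 profiles led by Igha, the constant region of mucosal IgA, 5 had Ighv1-66 as their leading heavy segment, 2 Ighv14-3, 2 Ighv3-8 and 1 Ighv5-9-1. Of the 14 led by Ighg1, 7 had Ighv10-1. Among the 17 led by Ighm, Ighv7-1 led in 5, and Ighv2-5, Ighv5-6 and Ighv10-1 in 3 each. Ighv10-1, Ighv14-3 and Ighv5-6 each led profiles of more than 1 constant gene. As near copies recur among the profiles, these counts describe the table and were given no test.

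The B class was then compared between the groups gene by gene with limma on log2(SPM + 1), over the signal summed per mouse and scaled by TMM factors, in 3 healthy and 5 arthritic mice. No segment passed an adjusted p of 0.05 (Benjamini-Hochberg over 9585 genes), and the lowest adjusted p of a segment was 0.519. The same held for all genes, of which 0 passed (0.0%) and 678 had an unadjusted p below 0.05. Leaving out healthy mouse 2, whose columns include 3 with the highest variable signal among healthy mice, 8 segments passed among 59 of all genes (0.575%). These were Ighv1-66, Ighv2-9, Ighv3-8, Ighv5-6, Igkv6-15, Igkv8-19, Igkv12-46 and Igkv14-111. Of them, Ighv1-66, Ighv3-8, Igkv6-15 and Igkv14-111 stood at 0 SPM in both healthy mice left. They met the filter on level through arthritic mice only and so had to differ. Of 230 segments, 104 reached the filter of 10 SPM in at least 3 mice, 40 of them in arthritic mice only, so these had to differ and are left out of the next counts. The other 64 reached 10 SPM in at least 1 mouse of each group. Unadjusted limma p was below 0.05 for 23 of these 64, all higher in arthritic mice, where the share among the 9269 genes that met the same condition was 5.04% higher and 0.647% lower. The log2 difference was positive for 60 and negative for 4, with a median of 2.69 against 0.53 for those genes. All arthritic mice lay above all healthy mice for 3 of the 64, Ighv1-66, Ighv5-6 and Igkv6-15, against 2.48% of the genes, and for none did they all lie below, against 1.21%. Leaving out the columns shared between mice, and with them healthy mouse 4, left 5 of 88 segments with an unadjusted limma p below 0.05, a share no higher than the 6.99% of all genes in that setting. These 88 are all segments tested there, not only those at 10 SPM in both groups. The like number with all columns was 57 of 104, which includes the 40 that had to differ.

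The segments with the smallest p are described by their levels, since none passed the test. Of these, Ighv1-85, Ighv3-8, Igkv3-12 and Igkv14-111 belong to the 40 that reached the filter through arthritic mice only, so that their order is set by their choice. Ighv1-66 stood at 0, 16.7 and 0 SPM in healthy mice 1, 2 and 4 and at 244, 71.1, 173, 1220 and 26.8 SPM in arthritic mice 1, 3, 4, 5 and 6. The groups did not overlap, and the lowest arthritic mouse was 6, next to healthy mouse 2. Its log2 difference was 5.94 ± 1.25 (SE; limma, adjusted p = 0.519). The size depends on the pseudocount, since 2 healthy mice were at 0: it was 3.67 with a pseudocount of 10 and 8.16 with 0.1. Ighv1-85 stood at 0, 1.97 and 0 SPM in the healthy and at 191, 49.7, 72.9, 307 and 12.8 SPM in the arthritic mice, a log2 difference of 5.78 ± 1.00 (SE). Ighv3-8 was at 0, 2.95 and 0 SPM against 146, 55.1, 31.4, 83.8 and 15.3 SPM, a difference of 5.03 ± 0.90 (SE). Arthritic mouse 6 was the lowest of its group for both.

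Among kappa segments, Igkv6-15 stood at 0, 13.8 and 0 SPM in healthy mice 1, 2 and 4 and at 283, 182, 383, 363 and 17.5 SPM in arthritic mice 1, 3, 4, 5 and 6, a log2 difference of 6.10 ± 1.15 (SE). Arthritic mouse 6 was again nearest to healthy mouse 2, and the other arthritic mice lay between 182 and 383 SPM. Igkv3-12 had the greatest difference of the segments tested, 6.16 ± 1.48 (SE), with 0, 1.97 and 0 SPM in the healthy and 1381, 247, 197, 27.9 and 4.75 SPM in the arthritic mice. Its level in arthritic mice 1 and 6 thus differed far more than those of arthritic mouse 6 and healthy mouse 2. Igkv14-111 was at 0, 3.93 and 0 SPM against 92.2, 38.0, 60.3, 168 and 11.8 SPM, a difference of 4.999 ± 0.96 (SE).

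Other leading segments overlapped between the groups. Igkv8-30 stood at 0, 20.7 and 0 SPM in healthy mice 1, 2 and 4 and at 922, 969, 181, 9.31 and 10.006 SPM in arthritic mice 1, 3, 4, 5 and 6, with arthritic mice 5 and 6 below healthy mouse 2. Iglv1, the segment with the highest mean share, was at 7.01, 280 and 110 SPM in the healthy and at 211, 237, 31.4, 456 and 20.5 SPM in the arthritic mice, a log2 difference of 0.81 ± 1.23 (SE) that turned to -0.51 without healthy mouse 1 and to -1.77 with only the mice of at least 20 columns. Healthy mouse 2 was above all arthritic mice except mouse 5 for Iglv1. Of the 4 segments with a negative difference, Ighv6-3 had the lowest value, -0.44 ± 1.10 (SE; 0.43 with array weights), with 7.01, 2.95 and 11.0 SPM in the healthy and 11.9, 6.62, 13.8, 0 and 2.00 SPM in the arthritic mice. A single unit of signal was worth 7.01 SPM in healthy mouse 1 and 11.0 SPM in healthy mouse 4, so lower levels could not be seen there.

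**Figure D5:**
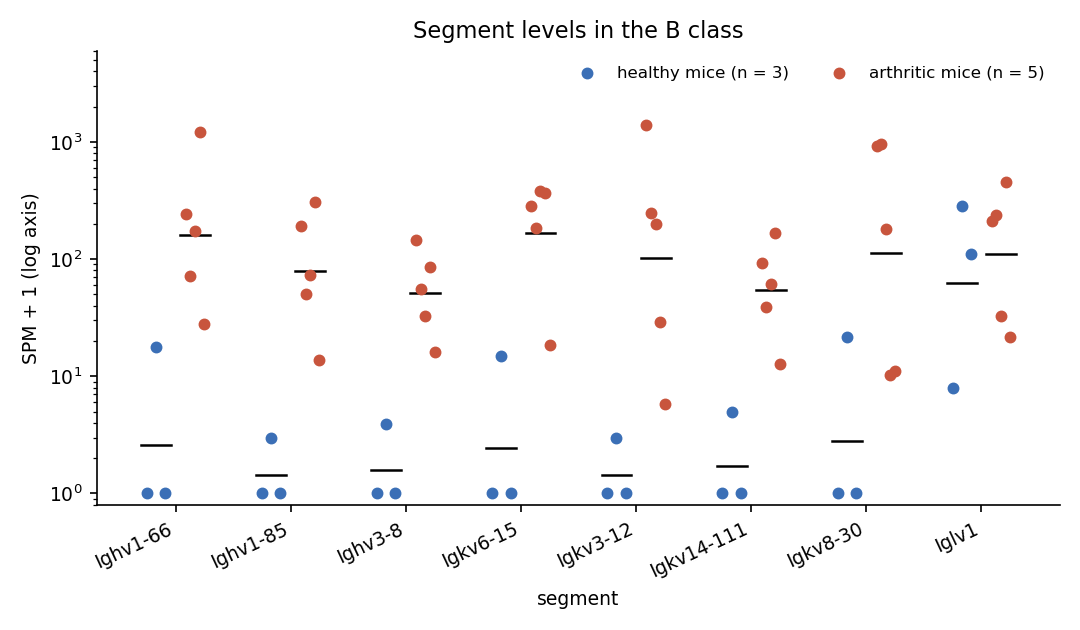
Level of 8 segments in the B class (SPM + 1, log axis) in each of 3 healthy (blue) and 5 arthritic (red) mice, with the mean of the log2 values as a bar. Healthy mice 1 and 4 lie at 0 SPM for every segment shown except Iglv1, and the groups do not overlap for the first 6, of which 4 reached the filter through arthritic mice only.

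Genes that work with the variable segments were looked at in the same fit, and none of them passed. Of 11 constant region genes tested, 10 had a positive difference. Igkc stood at 1213, 5126 and 2772 SPM in healthy mice 1, 2 and 4 and at 34524, 18618, 16408, 57483 and 2207 SPM in arthritic mice 1, 3, 4, 5 and 6. Only arthritic mouse 6 lay within the healthy range, and the log2 difference was 2.70 ± 0.87 (SE; limma, adjusted p = 0.519). All 10 joining segments tested had a positive difference, with a median of 2.65; Igkj1, the joining segment nearest to the kappa variable cluster, had 3.56 ± 0.79 (SE). Of the 12 antibody-secreting cell genes tested all were positive, with a median of 0.99, and Mzb1, a chaperone of immunoglobulin assembly, had 1.87 ± 0.64 (SE). The 10 germinal centre genes tested had a median of 0.65 and the 15 B cell genes 0.13, where the median of all genes tested was 0.56. Over all cells, all 6 joining segments tested were positive, but only 5 of the 11 antibody-secreting cell genes, with a median of -0.0005. Among the recombination and surrogate light chain genes, Rag2 and Vpreb2 were at 0 in every mouse. Igll1, part of the surrogate light chain of B cell precursors, was lower in all arthritic mice than in all healthy mice (log2 difference -2.86 ± 0.97, SE). Of the 9269 genes at 10 SPM in at least 1 mouse of each group, 1.21% lay that way. Summed over all columns, the Igll1 difference ran from -0.669 to 0.004 across the alternative settings.

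Summed over all 4310 columns, with no use of the class labels and with all 4 healthy mice, 21 segments reached the filter. Again 0 of them passed limma's adjusted p of 0.05 over 8446 genes, of which 4 did (0.0474%; 0.0118% higher and 0.0355% lower). The lowest adjusted p of a segment was 0.121, and without arthritic mouse 6 Igkv6-15 and Igkv14-126 passed, among 64 of all genes (0.789%). Of the 21, 3 reached 10 SPM in arthritic mice only, Igkv6-15 and Igkv14-126 among them, and had to differ. Among the other 18, unadjusted limma p was below 0.05 for 8, all higher in arthritic mice, against 9.75% higher and 2.54% lower of the 8318 genes that met the same condition. All arthritic mice lay above all healthy mice for 1 of the 18, Igkv3-12, against 2.83% of those genes, and all lay below for none, against 1.23%. Igkv6-15 stood at 0, 8.46, 0 and 2.24 SPM in healthy mice 1 to 4 and at 80.8, 76.1, 42.0, 15.1 and 9.53 SPM in arthritic mice 1, 3, 4, 5 and 6, a log2 difference of 3.86 ± 0.83 (SE). Ighv1-66 overlapped between the groups here, since healthy mouse 4 stood at 49.2 SPM, the highest of the 9 mice, with 22 signal, while its B-class columns had none.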

How the data were processed

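Seq-Well libraries of mouse blood were analysed as a deposited table of signal values per gene and single-cell column. Per the labels' protocols and the submitters' processing notes, the authors processed reads with the Drop-seq core protocol against GRCm38.p5. The values are whole numbers, but as their origin is not stated they are called signal here and no counting error was assigned. For the aligner, strand, cell filter, doublet treatment and assignment of class labels, the sources used here give no details. A joint table with 8423 per-sample columns was not used.

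Groups came from the labels, and columns from the mouse named in them; nothing says how the mice were housed or whether libraries were prepared together. Signal was summed per mouse, scaled per 1000000 with TMM factors (trims of 30% and 5%), and tested with limma 3.58.1 in R 4.3.3 on log2(SPM + 1), over genes at 10 SPM or more in as many mice as the smaller group has, with Benjamini-Hochberg adjustment at 0.05. Shares, entropy and overlap were computed in Python 3.11.15 (numpy 2.4.6, pandas 2.3.3, scipy 1.17.1), with mice of at least 5 B-class columns. The limma fit was tested on simulated data.

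Named were the 10 segments with the highest mean share, the leader of each mouse, up to 5 segments per direction with the smallest p in the B class and 3 over all cells, up to 3 genes of each list, and the 3 leading segments of each chain. The profiles, the segments without overlap and the segments passing in alternatives were singled out after their values were seen. The members and gene lists were chosen with earlier results of these data known. Alternatives were other scalings, filters, pseudocounts, treatments of identical columns, weights, a mouse-number block, other measures and leaving out each mouse.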

Additional observations from a re-analysis of the deposited data

Results flagged for a closer look

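The 5 arthritic mice were checked for a single mouse far from the others in the shares of 26 named segments and in 7 measures over all segments. Of these 33 groups of values 5 had one, all of them segment shares. Segments were named for high shares or small p in the same data, so this number cannot be set against a chance rate. Igkv12-44 took 16.8% of the variable signal in arthritic mouse 4, while the other arthritic mice lay between 0.115% and 4.17%. Igkv12-41, its closest relative in sequence, took 6.67% in arthritic mouse 5, against at most 1.89% in the others. Igkv6-15 took 7.49% in arthritic mouse 4 and between 2.05% and 2.92% in the others. Igkv5-43 took 4.15% in arthritic mouse 6 and at most 1.09% in the others. Ighv1-76, at 0.173% in arthritic mouse 5, stood apart at a very low level.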

How the results depend on the processing

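In the B class, 0 segments passed limma's adjusted p of 0.05, and 0 passed under the other scalings, filters, pseudocounts, weights and column choices. Leaving out 1 mouse gave 0 to 8, with the 8 arising without healthy mouse 2, some of them at 0 SPM in both healthy mice left. Over all cells the main number was 0, and leaving out 1 mouse gave 0 to 2, with the 2 arising without arthritic mouse 6. With the mouse number as a replicate block over the numbers both groups share, 3 segments passed in the B class (Igkv3-12, Igkv8-30 and Igkv12-44, in 2 mice against 2), where the same mice without the block gave 0, and 2 passed over all cells, where the same mice without the block also gave 2. Over all genes these fits called 13 of 8637 (0.151%) and 0 in the B class, and 40 (0.483%) and 29 (0.35%) of 8280 over all cells. In the blocked B-class fit, Igkv3-12 and Igkv8-30 stood at 0 SPM in both healthy mice. They met the filter through arthritic mice only and so had to differ. Deviations of same-numbered mice correlated at 0.125 in the B class and at 0.159, -0.340 and 0.171 over all cells. With 2 mice per group, all B-class correlations are equal in size by construction, and 3 values over all cells are few. Whether the numbers pair the mice could therefore not be settled.

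The difference between group means in segments seen at equal depth, 5.64, was 122 when a segment needed a signal of 2 and nothing was thinned, and 46.3 at equal columns. It ranged from -2.30 to 12.5 over mice left out. With identical columns counted once it was -0.599, and without columns shared between mice -2.18, at depths of 25 and 23 signal in place of 63. Weighting columns equally gave no value for it. The difference in effective number, 32.9, was 8.15 for Igkv alone and ranged from 19.4 to 48.5 over mice left out. That in the largest share, -1.35 percentage points, was 3.33 without columns shared between mice and -11.7 for Ighv alone, and ranged from -2.55 to 0.598. The difference in variable share ranged from 0.531 to 0.952 over mice left out. The cause of these changes was not tested. For single named genes, 1969 values kept the sign and the side of the threshold, 26 newly passed it and 129 took the other sign, in genes that had not passed. Such sign changes touched 44 of 104 results and 16 of the 39 for segments, among them Igkv10-94 (-1.15 to 1.70 on the log2 scale) and Iglv1 (-1.77 to 3.27) in the B class. The settings without columns of at least 100 variable signal, per transcript length, and with shared mouse numbers but no block were chosen after seeing the data. Healthy mice 1 and 4, with 63 and 84 variable signal, limit every comparison of rare segments.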

Other observations

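Variable signal was not limited to the columns labelled as B cells. The B class held 46.0%, 86.8% and 19.4% of the blood variable signal of healthy mice 1, 2 and 4 and 87.4%, 93.3%, 73.8%, 44.6% and 65.4% of that of arthritic mice 1, 3, 4, 5 and 6. In the granulocyte class it ranged from 50.0 to 1128 SPM (unscaled) over 9 mice, and in the class labelled for foxP3, a regulatory T cell factor, from 87.6 to 2010 SPM over 7 mice, against 544 to 17735 SPM in the B class over 8 mice. A single column held 745 of the 869 variable signal (85.7%) of the foxP3 class in arthritic mouse 6, where Igkv3-12 led with 22.8%. In the granulocyte class of arthritic mouse 1, Igkv6-15 led with 10.7% of 4442 variable signal, and in that of healthy mouse 4 Igkv14-111 led with 18.2% of 340.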
